A study of Mus musculus with 7 samples.

Results

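The genes described here are the 8 mouse genes that write, maintain and oxidise cytosine methylation in DNA: *Dnmt1*, *Uhrf1*, *Dnmt3a*, *Dnmt3b*, *Dnmt3l*, *Tet1*, *Tet2* and *Tet3*. They were chosen by name, as the DNA methyltransferase family with its cofactors and the TET family, with earlier results of these data known. They are 8 of the 21928 protein-coding genes in the deposited tables and 8 of the 13630 genes that passed a filter of at least 1 TPM in at least 3 libraries, so every one of the 8 was tested. Transcript abundance was measured by bulk RNA-seq of preleptotene-enriched testes, which came from 4 wild-type pups (libraries WT1 to WT4) and 3 *Meioc*-null pups (libraries KO1 to KO3) of the C57BL/6N strain, numbered as in the labels. The null pups carried the allele *Meioc* tm1.1Dpc, which had been crossed to that strain for at least 10 generations. Both genotypes were synchronized in the same way: WIN18446, which blocks the making of retinoic acid, was given at 0.1 mg/g from postnatal day 2 to 8, retinoic acid followed at 0.0125 mg/g on day 9, and testes were collected 6.75 days after it. Each library came from 1.5 whole testes of 1 pup, so germ cells and somatic cells were mixed.

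DNMT1 copies methylation onto the new DNA strand at replication, and UHRF1 binds hemimethylated CpG sites and brings DNMT1 there. DNMT3A and DNMT3B place methylation on unmethylated sites, and DNMT3L, which lacks catalytic activity, stimulates both and is needed for methylation in the male germ line before birth. TET1, TET2 and TET3 oxidise 5-methylcytosine, a step on the path to its removal. Preleptotene spermatocytes replicate their DNA in the S phase that precedes meiosis, which is a time when maintenance methylation is called on.

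Of the 8 genes, *Dnmt1* alone differed between the genotypes at an adjusted p under 0.05, and it was higher in wild type (1.36-fold in counts). *Dnmt3a*, *Dnmt3b* and *Dnmt3l* were each lower in wild type by their fitted values but did not pass that threshold. *Uhrf1*, *Tet1*, *Tet2* and *Tet3* did not pass it either. Thus 1 of 8 genes was called higher, beside 7.77% of all tested genes, and 0 of 8 were called lower, beside 3.33%, by the quasi-likelihood test of edgeR, with p adjusted by Benjamini and Hochberg's method over all tested genes. At an unadjusted p under 0.05, the same edgeR fit gave 1 gene higher, beside 17.4% of all tested genes, and 3 lower, beside 12.9%, the 3 being *Dnmt3a*, *Dnmt3b* and *Dnmt3l*. DESeq2 on the same genes called 2 lower, *Dnmt3a* and *Dnmt3b*, beside 6.42%. With scaling by library size alone, edgeR called *Dnmt3a* and *Dnmt3l* lower, beside 6.6%. The test of limma called all 3 Dnmt3 genes lower on log2(TPM + 1), beside 15.3%, and on log2(TPM + 0.1), beside 15.1%, scales on which the median tested gene itself lay at -0.23 and -0.25. Over all tested genes, 69.99% of the edgeR calls were higher in wild type, a share that was 47.5% with scaling by library size alone and 17.4% by limma on log2(TPM + 1). The median log2 fold change (wild type/Meioc-null) of the 8 was -0.24, and that of all tested genes was -0.01. The groups did not overlap in CPM, counts per 1000000 after TMM scaling, for 3 of the 8 genes, *Dnmt1*, *Dnmt3a* and *Dnmt3l*, whereas this held for 26.2% of all tested genes.

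The libraries held 12537852 to 20552702 estimated counts, at which 3 counts are 0.146 to 0.239 CPM. *Meioc*, the targeted gene, stood at 466, 658, 662 and 718 CPM in WT1 to WT4 and at 399, 299 and 412 CPM in KO1 to KO3. It was lower in every null library (log2 fold change 0.76, SE 0.159, adjusted p = 0.0207, edgeR) but was not absent, and the counts cover the whole transcript, so they do not show which part of it the allele leaves. Its call was lost without WT2 (edgeR adjusted p = 0.0606), WT3 (0.0614), WT4 (0.0524), KO2 (0.0622) or KO3 (0.0638). KO2 stood apart from the rest. It held the highest CPM of the 7 libraries for 24.6% of tested genes and the lowest for 24.9%, where the other libraries held 10.9% to 14.96% and 9.73% to 14.7%, and its deviations from the gene means rose with transcript length (Pearson's r = 0.29 across genes, which are not independent replicates). This library was the highest in CPM for 5 of the 8 genes, and each of the 8 is therefore given with and without it.

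Markers of germ cell stages also moved with genotype. In TPM, transcripts per 1000000, which divides by length, the sum over 20 genes of meiotic prophase was 4173 to 5794 in wild type and 2464 to 2802 in null libraries. The sum over 20 genes of S phase was 996 to 1170.3 TPM against 815 to 963, and that over 10 genes of undifferentiated spermatogonia was 98.3 to 129.7 TPM against 181 to 284. Among the tested genes of these lists, 18 of 20 meiotic prophase genes and 10 of 20 S phase genes rose in wild type, and 5 of 9 undifferentiated genes fell. No marker of these lists was at 0 in all libraries. In whole testes, fewer cells of a type and less RNA per cell cannot be told apart, and the part of these shifts in the values of the 8 genes was not tested.

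*Dnmt1*, on chromosome 9 (GRCm38, 20907209 to 20959888, minus strand), was the most abundant of the 8 genes. It stood at 259.7, 349, 342 and 338 CPM in WT1 to WT4 and at 249, 234 and 226 CPM in KO1 to KO3. Wild-type replicate 1 was far below the other wild-type libraries and just above the highest null library, and the groups did not overlap. The means were 322 ± 41.9 CPM (SD, n = 4) in wild type and 236 ± 11.6 CPM (SD, n = 3) in null testes. *Dnmt1* was higher in wild type (log2 fold change 0.45, SE 0.108, 95% interval 0.20 to 0.69, adjusted p = 0.0308, edgeR), and 90.5% of tested genes had a lower log2 fold change.

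The call of *Dnmt1* was not kept in every fit with 1 library left out. It was kept when WT1 (edgeR adjusted p = 0.00267) or KO1 (0.0382) was left out, and was lost without WT2 (0.0909), WT3 (0.0897), WT4 (0.0766), KO2 (0.0831) or KO3 (0.105). The log2 fold change stayed between 0.41 and 0.54 in these 7 fits, and was 0.44 without KO2. In the fits that lost the call, the calls over all tested genes also fell, from 1513 to between 131 and 542. Without WT1 or KO1 they rose to 2172 and 2112. The scale mattered as well. In TPM, *Dnmt1* stood at 69.0, 82.2, 81.1 and 80.5 in wild-type and at 69.4, 73.4 and 61.5 in null libraries, so the groups overlapped through WT1. On log2(TPM + 1) the difference was 0.20 (adjusted p = 0.157, limma). On that scale the median tested gene was at -0.23, and *Dnmt1* lay 0.42 above this median.

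The summed TPM of the 20 S phase genes was also higher in every wild-type library than in every null library. Within a library, *Dnmt1* came to 6.93, 7.03, 7.17 and 7.09 TPM for each 100 TPM of the 20 S phase genes in wild type. In null libraries it came to 7.21, 8.33 and 7.55 TPM for each 100 TPM. On this ratio, formed after the values were seen and not tested, every null library was above every wild-type library. WT1, at 6.93 TPM, was the lowest. The part of the S phase genes in the *Dnmt1* difference was not tested.

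*Uhrf1*, on chromosome 17 (GRCm38, 56303321 to 56323486, plus strand), encodes the factor that recruits DNMT1. It stood at 73.9, 93.9, 78.1 and 74.1 CPM in wild-type and at 78.0, 59.9 and 63.8 CPM in null libraries. The groups overlapped, because KO1 was above 2 of the 4 wild-type libraries. *Uhrf1* did not pass the test (log2 fold change 0.25, SE 0.119, 95% interval -0.02 to 0.52, adjusted p = 0.190, edgeR), and without KO2 its log2 fold change was 0.17. In TPM the group means were 26.3 ± 2.63 (SD, n = 4) and 26.5 ± 2.59 (SD, n = 3), and the sign turned (-0.01 on log2(TPM + 1), limma adjusted p = 0.945). The median tested gene was at -0.23 on that scale, and *Uhrf1* lay 0.21 above this median, which was not tested. For each 100 TPM of S phase genes, *Uhrf1* came to 2.66, 2.55, 2.21 and 2.09 TPM in wild-type and to 3.06, 2.90 and 3.01 TPM in null libraries. *Uhrf1* shares 28.5% of its 31-base words with other transcripts of the annotation, mostly with the *Uhrf1*-like sequence *Gm5648*, which is not in the tables used here, so its level is less certain than those of the other genes.

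*Dnmt3a*, on chromosome 12 (GRCm38, 3806007 to 3914443, plus strand), stood at 199.7, 187, 194 and 185 CPM in wild-type and at 209, 268 and 219.6 CPM in null libraries. Every null library was above every wild-type library, with KO2 the highest. The difference did not pass the test (log2 fold change -0.28, SE 0.0938, 95% interval -0.49 to -0.07, adjusted p = 0.0815, edgeR). It came to -0.16 without KO2 (adjusted p = 0.203, edgeR) and passed without KO1 (-0.35, adjusted p = 0.0442, edgeR). With each library's trend of CPM with transcript length removed, it was -0.20 (adjusted p = 0.0735, edgeR). In TPM, *Dnmt3a* was 22.7 to 26.2 in wild type and 31.6 to 45.6 in null libraries, and the difference on log2(TPM + 1) was -0.53 (adjusted p = 0.0318, limma). Relative to the median gene it was -0.31, which was not tested.

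*Dnmt3b*, on chromosome 2 (GRCm38, 153649450 to 153687730, plus strand), stood at 37.0, 33.3, 28.8 and 27.3 CPM in wild-type and at 35.7, 43.6 and 42.7 CPM in null libraries. The groups overlapped in CPM, since WT1 was above KO1, but not in TPM (8.23 to 11.7 against 11.97 to 17.8). The log2 fold change was -0.37 (SE 0.124, 95% interval -0.64 to -0.09, adjusted p = 0.0831, edgeR) and -0.32 without KO2. It passed the test when WT1 was left out (-0.45, adjusted p = 0.0333, edgeR). *Dnmt3b* shares 15.9% of its 31-base words with *Dnmt3c*, the rodent paralogue that methylates young retrotransposons in male germ cells. *Dnmt3c* itself was at 7.30 CPM on average in wild-type and 7.23 CPM in null libraries (log2 fold change 0.02, adjusted p = 0.944, edgeR).

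*Dnmt3l*, on chromosome 10 (GRCm38, 78041947 to 78063622, plus strand), was the least abundant of the 8 genes. It stood at 1.58, 2.16, 1.15 and 1.01 CPM in wild-type and at 2.45, 3.32 and 2.66 CPM in null libraries, from 17.0 to 49.0 estimated counts. Each null library was above each wild-type library in both CPM and TPM. The fitted difference was the largest of the 8 (log2 fold change -0.94, 1.92-fold higher in null) but wide (SE 0.291, 95% interval -1.59 to -0.29), and did not pass the test (adjusted p = 0.0650, edgeR). It came to -0.81 without KO2, and none of the 7 fits that left out a library brought it past the threshold (edgeR adjusted p from 0.0594 to 0.172). It did pass with scaling by library size alone (-1.02, adjusted p = 0.0489, edgeR) and with limma on log2(TPM + 1) (-0.72, adjusted p = 0.0351) and log2(TPM + 0.1) (-1.12, adjusted p = 0.0409). Of all tested genes, 1.05% had a lower log2 fold change. For the 3 Dnmt3 genes, the sum was 39.2, 34.6, 35.03 and 31.8 TPM in wild-type and 45.9, 66.6 and 47.8 TPM in null libraries. For each 100 TPM of the undifferentiated spermatogonia markers, this sum came to 30.3, 35.2, 28.9 and 25.6 TPM in WT1 to WT4. In KO1 to KO3 it came to 25.4, 23.4 and 26.3 TPM. WT1, WT2 and WT3 were thus above every null library, the reverse of the sum itself, and the groups overlapped through WT4. This ratio was formed after the values were seen and was not tested.

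No TET gene passed the test, and *Tet2* and *Tet3* varied widely among the null libraries. *Tet3*, on chromosome 6 (GRCm38, 83362373 to 83459084, minus strand), stood at 146, 137, 142 and 114 CPM in wild-type and at 108, 230.4 and 128 CPM in null libraries. KO2 was the highest of the 7 libraries while KO1 was the lowest. The log2 fold change of *Tet3* was -0.20 (SE 0.224, 95% interval -0.71 to 0.30, adjusted p = 0.570, edgeR) and turned to 0.19 without KO2 (adjusted p = 0.353, edgeR).

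*Tet2*, on chromosome 3 (GRCm38, 133463679 to 133545139, minus strand), stood at 50.7, 46.2, 49.4 and 44.2 CPM in wild-type and at 47.5, 72.5 and 55.3 CPM in null libraries. KO1 lay within the wild-type range and the other two null libraries above it. The log2 fold change was -0.29 (SE 0.133, 95% interval -0.59 to 0.00, adjusted p = 0.170, edgeR). It came to -0.11 without KO2 (adjusted p = 0.515, edgeR) and to -0.42 without KO1, where it passed the test (adjusted p = 0.0479, edgeR). Removal of the trend with transcript length gave -0.20 for *Tet2* and -0.08 for *Tet3*.

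*Tet1*, on chromosome 10 (GRCm38, 62804570 to 62908996, minus strand), stood at 29.4, 30.9, 31.2 and 33.7 CPM in wild-type and at 30.5, 34.1 and 34.9 CPM in null libraries. The groups overlapped in CPM, and the log2 fold change of *Tet1* was the nearest to 0 of the 8 (-0.08, SE 0.0908, 95% interval -0.29 to 0.12, adjusted p = 0.574, edgeR). It was -0.06 without KO2 and 0.02 with the length trend removed. In TPM the groups did not overlap (3.18 to 3.52 against 3.77 to 4.76), and the difference on log2(TPM + 1) was -0.26 (adjusted p = 0.172, limma), with the median gene at -0.23.

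**Figure D1:**
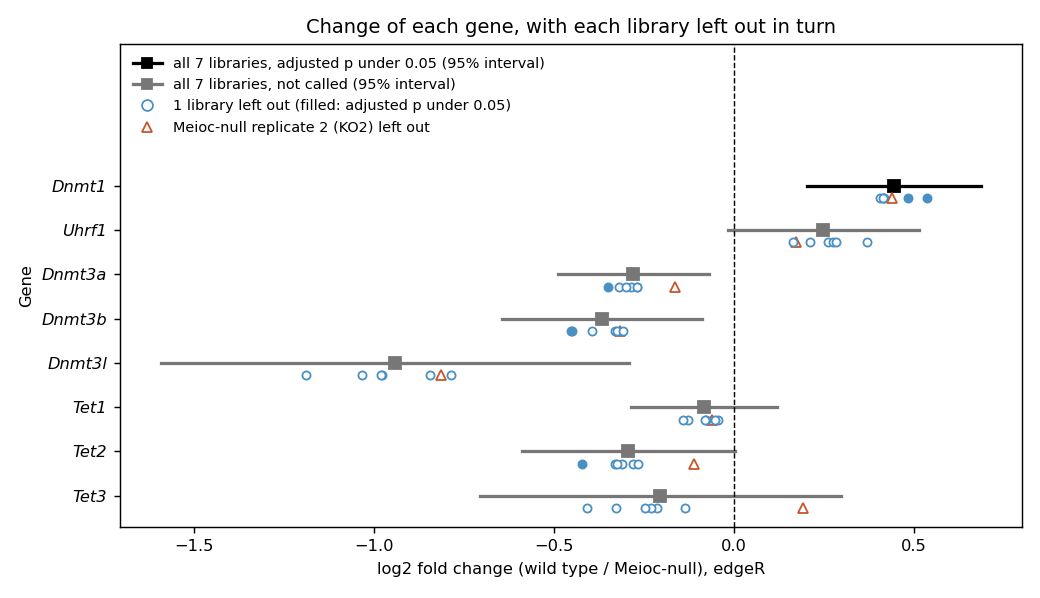
Squares show the log2 fold change (wild type/Meioc-null) of each gene from edgeR on all 7 libraries with its 95% interval, black where the adjusted p was under 0.05; the symbols under each square are the fits with 1 library left out, filled where the adjusted p was under 0.05, and the triangle leaves out KO2. *Dnmt1* lies to the right of 0 in every fit (0.41 to 0.54), *Dnmt3a*, *Dnmt3b* and *Dnmt3l* lie to the left in every fit, and *Tet3* crosses 0 without KO2 (0.19).

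The order of the 8 genes by TPM, which can be compared between genes, was *Dnmt1* (73.9, mean of the 7 libraries), *Dnmt3a* (29.6), *Uhrf1* (26.4), *Tet3* (16.3), *Dnmt3b* (11.6), *Tet2* (10.4), *Tet1* (3.73) and *Dnmt3l* (1.73). *Dnmt1* was 2.49 times as abundant as *Dnmt3a* on this mean and was above it in 7 of 7 libraries. The order of *Dnmt3a* and *Uhrf1* differed among the libraries and was not tested against genotype. *Dnmt3a* was above *Uhrf1* in 3 of 3 null libraries, where their ranges did not overlap. It was above *Uhrf1* in 1 of 4 wild-type libraries, where the ranges overlapped. *Tet3* was above *Dnmt3b* in 7 of 7 libraries although their ranges overlapped within each genotype, and *Dnmt3b* was above *Tet2* in 6 of 7 with overlapping ranges. *Tet2* and *Tet1*, and *Tet1* and *Dnmt3l*, did not overlap in either genotype.

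**Figure D2:**
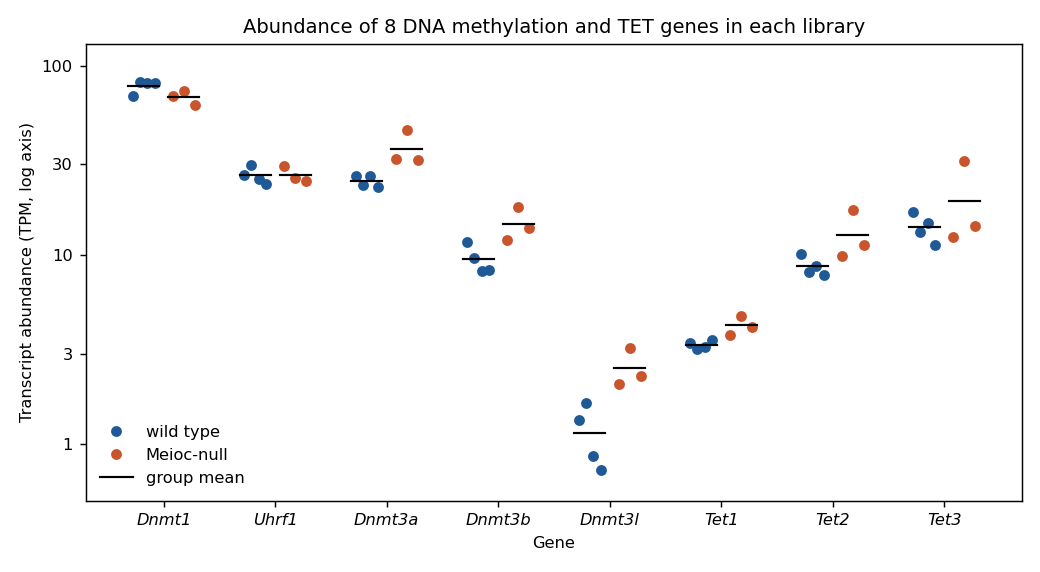
Each point is the TPM (log axis) of a gene in a library, blue for the 4 wild-type and red for the 3 *Meioc*-null libraries, and the black lines are group means. *Dnmt1* overlaps between the groups (69.0 to 82.2 against 61.5 to 73.4 TPM), *Dnmt3a*, *Dnmt3b*, *Dnmt3l* and *Tet1* do not, and the high null point of *Tet3* at 31.3 TPM is KO2. *Dnmt3b* and *Tet1* do overlap in CPM. The share of all tested genes whose groups do not overlap in TPM was not computed, and the median tested gene was at -0.23 on log2(TPM + 1).

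Shares within a family do not depend on the scaling between libraries. They add up to the whole in each library, so a lower share of 1 gene raises the others, and they are not separate results. *Dnmt1* made up 63.8%, 70.4%, 69.8% and 71.7% of the summed TPM of *Dnmt1*, *Dnmt3a*, *Dnmt3b* and *Dnmt3l* in wild-type libraries and 60.2%, 52.4% and 56.3% in null libraries. The share was higher in every wild-type library, with means of 68.9% ± 3.54 (SD, n = 4) and 56.3% ± 3.87 (SD, n = 3), a difference of 12.6 percentage points (two-sided exact permutation test, p = 0.0571, the smallest that 4 against 3 libraries allow, so that 0.05 cannot be reached). Over the 7 shares compared, the adjusted p of this permutation test was 0.133. The share of *Dnmt3a* was at most 24.2% in wild-type libraries and 27.7% to 32.6% in null (exact permutation p = 0.0571, adjusted 0.133), and that of *Dnmt3l* was 0.645% to 1.40% against 1.79% to 2.29% (exact permutation p = 0.0571, adjusted 0.133). The share of *Dnmt3b* overlapped, with means of 8.37% and 11.9% (exact permutation p = 0.114, adjusted 0.200). Without KO2 the difference for *Dnmt1* was 10.7 percentage points.

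Among the TET genes, *Tet3* held the largest share in each genotype. Its share was 53.6% ± 2.60 (SD, n = 4) in wild type and 51.5% ± 6.37 (SD, n = 3) in null, *Tet2* held 33.3% and 36.0%, and *Tet1* 13.02% and 12.5% (exact permutation p = 0.629, 0.286 and 0.743). The shares overlapped between the genotypes for all 3 genes. In KO2, *Tet3* made up 58.8% of the TET transcripts and the TET sum was 53.2 TPM, whereas it was 22.6 to 30.3 TPM in the other 6 libraries.

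**Figure D3:**
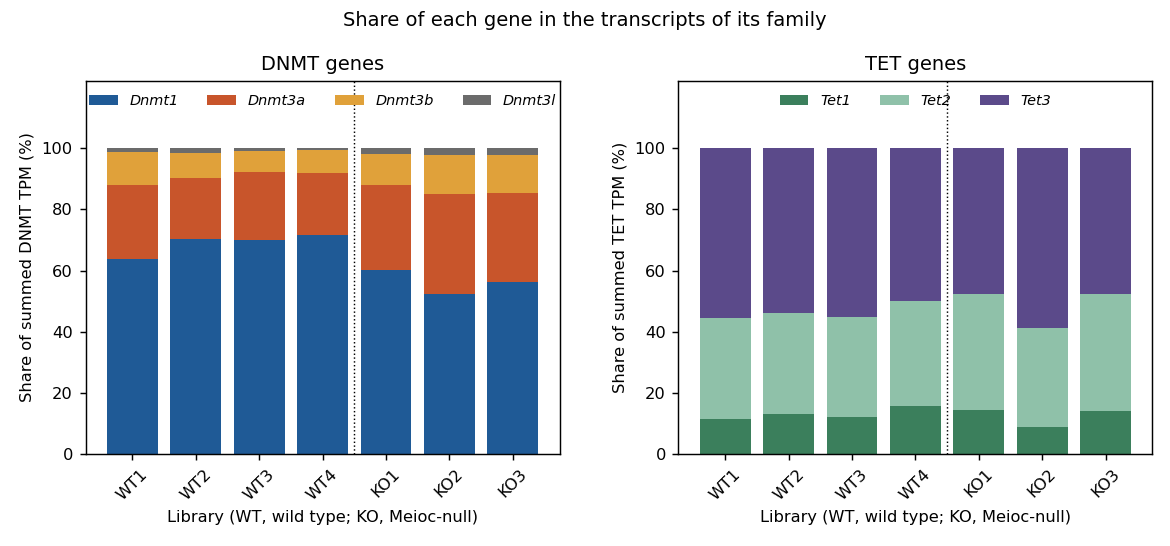
Stacked bars give the share of each gene in the summed TPM of the 4 DNMT genes (left) and the 3 TET genes (right) in each library, wild type (WT) to the left of the dotted line and *Meioc*-null to its right. The *Dnmt1* share is 63.8% to 71.7% in wild-type and 52.4% to 60.2% in null libraries, and the TET shares overlap.

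*Dnmt1* has several first exons, and those used in oocytes and in spermatocytes differ from the somatic one. The deposited tables divide its reads mainly between Dnmt1-201, which begins at 20952979, and Dnmt1-202, which begins at 20959888. Dnmt1-203, at 0 TPM in 5 libraries, begins at 20952623. The 300 bases around these 3 starts, from 250 before the start to 50 from it, are printed (RefSeq, GRCm38.p6, minus strand of chromosome 9). Dnmt1-207 begins at 20952605, inside the window of Dnmt1-203. Capitals mark the match found among 4 motifs searched on both strands, TTTGGCGC and TTTCCCGC of E2F factors, CNCCTCAG of STRA8-MEIOSIN and CACGTG, the E-box.
*Dnmt1*, chr9:20952574-20952873: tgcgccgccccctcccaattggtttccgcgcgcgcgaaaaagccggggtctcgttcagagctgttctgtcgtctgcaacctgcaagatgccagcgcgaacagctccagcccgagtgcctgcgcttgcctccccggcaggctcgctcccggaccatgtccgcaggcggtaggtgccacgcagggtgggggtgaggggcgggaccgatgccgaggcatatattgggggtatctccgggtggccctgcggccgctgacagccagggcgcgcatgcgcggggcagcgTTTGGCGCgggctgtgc
*Dnmt1*, chr9:20952930-20953229: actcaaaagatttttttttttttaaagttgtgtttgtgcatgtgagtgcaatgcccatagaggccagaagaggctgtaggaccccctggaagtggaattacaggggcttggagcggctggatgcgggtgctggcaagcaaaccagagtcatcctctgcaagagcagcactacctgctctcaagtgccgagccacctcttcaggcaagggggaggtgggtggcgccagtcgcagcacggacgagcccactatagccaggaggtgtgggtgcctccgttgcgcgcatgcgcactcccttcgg
*Dnmt1*, chr9:20959839-20960138: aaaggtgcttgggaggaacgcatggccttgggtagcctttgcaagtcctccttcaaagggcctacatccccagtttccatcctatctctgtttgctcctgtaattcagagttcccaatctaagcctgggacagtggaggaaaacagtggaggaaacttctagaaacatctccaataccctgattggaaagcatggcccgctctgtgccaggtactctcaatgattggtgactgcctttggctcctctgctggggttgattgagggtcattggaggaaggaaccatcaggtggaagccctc
The match, TTTGGCGC, begins at base 34, where the start at 20952623 is counted as base 1. Of the 32851 RefSeq promoters of this length, 0.514% hold these letters. The CG dinucleotides of the 3 regions number 33, 12 and 2, against a median of 7 in all promoters, so the start of Dnmt1-202 is the poorest in CG.

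Of the 34 transcripts of the 8 genes in the tables, 18 had a mean of at least 1 TPM. A fit over 21920 transcripts took in 18 of the 34, which differ from the former set in that Dnmt3b-208 was not tested and Dnmt3l-208, with a mean of 0.908 TPM, was. Of the tested transcripts of these genes 0 were called, beside 0.0547% of all transcripts called higher and 0.00912% called lower (edgeR). At an unadjusted p under 0.05 the edgeR fit gave 2, Dnmt1-202 and Dnmt3b-203, beside 17.4% of all transcripts, and limma on log2(TPM + 1) also called 0. Dnmt1-201 stood at 22.6, 40.5, 43.5 and 41.9 TPM in wild-type and at 32.7, 36.1 and 34.97 TPM in null libraries, with WT1 the lowest of all. Dnmt1-202 stood at 44.0, 39.2, 36.2 and 37.4 TPM in wild-type and at 34.6, 33.7 and 24.1 TPM in null libraries. The groups of Dnmt1-202 did not overlap, but WT3 at 36.2 TPM was close to KO1 at 34.6 TPM. The share of all transcripts whose groups do not overlap was not computed. The log2 fold change of Dnmt1-202 was 0.57 (SE 0.115, adjusted p = 0.111, edgeR). Without WT1, Dnmt1-201 was called higher instead (log2 fold change 0.54, adjusted p = 0.0292, edgeR), in a fit that called 1.86% of all transcripts in either direction (407).

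These estimates divide reads that transcripts share. Of the 31-base words of Dnmt1-201, 5.08% occur in no other transcript, and of those of Dnmt1-202, 2.95%, so the split between them is less certain than the gene's sum. The third transcript, Dnmt1-207, was at 0.640 to 2.61 TPM. For *Dnmt3b* no transcript has a word of its own. Dnmt3b-209 was at 1.82 to 10.4 TPM, Dnmt3b-201 at 0 to 4.16 TPM and Dnmt3b-206 at 0 to 2.64 TPM. Dnmt3b-208 was at 2.14 TPM in WT4, 5.84 TPM in KO2 and 0 in the others. Dnmt3b-203 was listed at 4.16, 1.53, 1.47 and below 0.01 TPM in wild-type libraries and at 0 in every null library, and no fold is given. Tet3-202, with 53.3% of its words unique, had the largest such share of the 34 transcripts. It stood at 11.8, 10.23, 10.1 and 8.76 TPM in wild-type and at 9.93, 21.9 and 11.1 TPM in null libraries, so KO2 was the highest here too. Tet3-203 was at 2.52 to 5.02 TPM and 2.53 to 9.40 TPM.

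The other transcripts with at least 1 TPM overlapped between the genotypes. The means in wild-type and null libraries were 14.8 and 22.6 TPM for Dnmt3a-218, 7.47 and 9.45 TPM for Dnmt3a-201, and 2.32 and 4.35 TPM for Dnmt3a-205. They were 2.16 and 2.30 TPM for Tet1-206, 1.18 and 1.92 TPM for Tet1-201, 5.70 and 6.68 TPM for Tet2-201, and 2.97 and 6.08 TPM for Tet2-204. Uhrf1-201 made up 94.5% to 98.8% of the *Uhrf1* TPM in 6 libraries and 64.1% in KO3.

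*Dnmt3a* and *Dnmt3l* also have internal starts. The 300 bases around 2 of them are printed because they are the other promoters of the 8 genes with a match to a motif, shown in capitals (RefSeq, GRCm38.p6, plus strand).
*Dnmt3a*, chr12:3891494-3891793: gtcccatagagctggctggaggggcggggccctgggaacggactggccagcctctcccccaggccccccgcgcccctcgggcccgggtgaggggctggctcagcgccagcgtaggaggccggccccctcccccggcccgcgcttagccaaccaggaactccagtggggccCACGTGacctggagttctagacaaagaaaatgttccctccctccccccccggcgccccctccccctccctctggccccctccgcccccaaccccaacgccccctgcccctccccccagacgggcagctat
*Dnmt3l*, chr10:78049592-78049891: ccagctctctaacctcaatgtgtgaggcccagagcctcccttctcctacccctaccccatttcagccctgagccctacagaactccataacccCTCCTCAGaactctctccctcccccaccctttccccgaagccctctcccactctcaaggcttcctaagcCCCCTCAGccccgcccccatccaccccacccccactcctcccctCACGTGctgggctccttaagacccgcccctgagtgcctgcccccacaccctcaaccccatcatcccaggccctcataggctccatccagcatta
In the *Dnmt3a* region the E-box CACGTG begins 80 bases before the start. The transcript Dnmt3a-203 begins at this start, 3891744, and Dnmt3a-205 begins at 3891728, inside the window. Dnmt3a-203 was listed at 0 in every library, and Dnmt3a-205 was at 0.0351 to 4.37 TPM in wild-type and 3.74 to 5.02 TPM in null libraries. In the *Dnmt3l* region CNCCTCAG occurs at 157 and 88 bases before the start, and CACGTG at 44 bases before it, with no overlap between the matches. Dnmt3l-201 begins at this start, 78049842. It was at 0.836 TPM in KO1, 0.951 TPM in KO2 and 0 in the other 5 libraries. Dnmt3l-208, with a mean of 0.908 TPM, begins at 78049959, outside the window. Of all promoters, 7.94% hold CNCCTCAG and 7.15% hold CACGTG. Of the 15 RefSeq promoters of the 8 genes, 3 held any of the 4 motifs, and the other promoters held none of these letters in the window. TTTCCCGC, found in 1.07% of all promoters, was in none of the 15. A match is a description of the letters and not a sign that a factor binds. The promoter of *Tet2* held 57 CG dinucleotides, and 99.8% of promoters held fewer.

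The other genes of DNA methylation and demethylation were described by 6 lists of 54 genes, all of which were tested. Of the 54, 5 were called higher in wild type (9.26%, beside 7.77% of all tested genes) and 5 lower (9.26%, beside 3.33%), with a median log2 fold change of -0.08.

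Among the 8 partners of maintenance methylation, 3 rose and 1 fell in wild type (median -0.06). *Hells*, a chromatin remodeller needed for methylation of repeats, had a log2 fold change of 1.07 (SE 0.193, adjusted p = 0.0157, edgeR). Its CPM was 366 to 663 in wild-type and 240.3 to 299.8 in null libraries. *Pcna*, the sliding clamp of replication, had 0.94 (adjusted p = 0.0175, edgeR) and *Lig1*, the ligase that joins the fragments of the lagging strand, 0.85 (adjusted p = 0.0201, edgeR). *Cdca7*, which encodes a binding partner of HELLS, went the other way at -0.67 (SE 0.139, adjusted p = 0.0203, edgeR), at 30.9 to 47.4 CPM against 56.6 to 61.5 CPM. *Hells* and *Cdca7* thus changed in opposite directions, whereas *Uhrf2*, the paralogue of *Uhrf1*, was at -0.06 (adjusted p = 0.662, edgeR).

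Among the 8 readers of methylated CpG, 0 were called higher and 2 lower (median -0.13). These were *Mbd2* (-0.33, adjusted p = 0.0235, edgeR), a subunit of a NuRD complex, and the zinc finger protein gene *Zbtb4* (-0.32, adjusted p = 0.0345, edgeR). Of 10 factors of germline de novo methylation and imprints, 1 was called higher and 2 lower (median -0.08). *Ctcfl*, the germline paralogue of *Ctcf*, stood at 81.1 to 111 CPM in wild-type and at 45.9 to 53.3 CPM in null libraries (log2 fold change 0.95, SE 0.122, adjusted p = 0.00505, edgeR). *Morc1* (-0.78, adjusted p = 0.0104, edgeR) and *Spocd1* (-0.80, adjusted p = 0.0227, edgeR), both needed to silence transposons in male germ cells, were lower in wild type.

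Of the 11 genes of demethylation and base excision repair 0 were called by edgeR (median 0.03), 2 had an unadjusted p under 0.05, beside 30.3% of all tested genes, and DESeq2 called 2, beside 17.1%, *Neil2* lower and *Gadd45b* higher. Of the 6 cofactors and regulators of TET enzymes 0 were called by edgeR (median -0.22), 2 had an unadjusted p under 0.05, and DESeq2 called 2 lower, the O-GlcNAc transferase gene *Ogt* and *Cxxc5*. These 4 were picked for naming once their values were known. The 11 genes of methyl donor supply had a median of -0.18. Leaving out 1 library changed how many of the 10 genes called in the 6 lists were still called, as it did over all tested genes. Over all tested genes, calls went from 1513 to 131 without KO3, 353 without KO2 and 296 without WT2. They went to 275 without WT3, 542 without WT4, 2112 without KO1 and 2172 without WT1. Of the 10 genes, 9 were lost without KO3 (edgeR adjusted p of 0.0542 to 0.0866) and 8 without KO2 (0.0513 to 0.0713). Leaving out WT2 lost 7 (0.0507 to 0.103), WT3 lost 7 (0.0527 to 0.108) and WT4 lost 4 (0.0505 to 0.0708), while leaving out KO1 lost *Zbtb4* (0.0612) and leaving out WT1 lost 0. *Ctcfl* was called in all 7 of these fits.

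**Figure D4:**
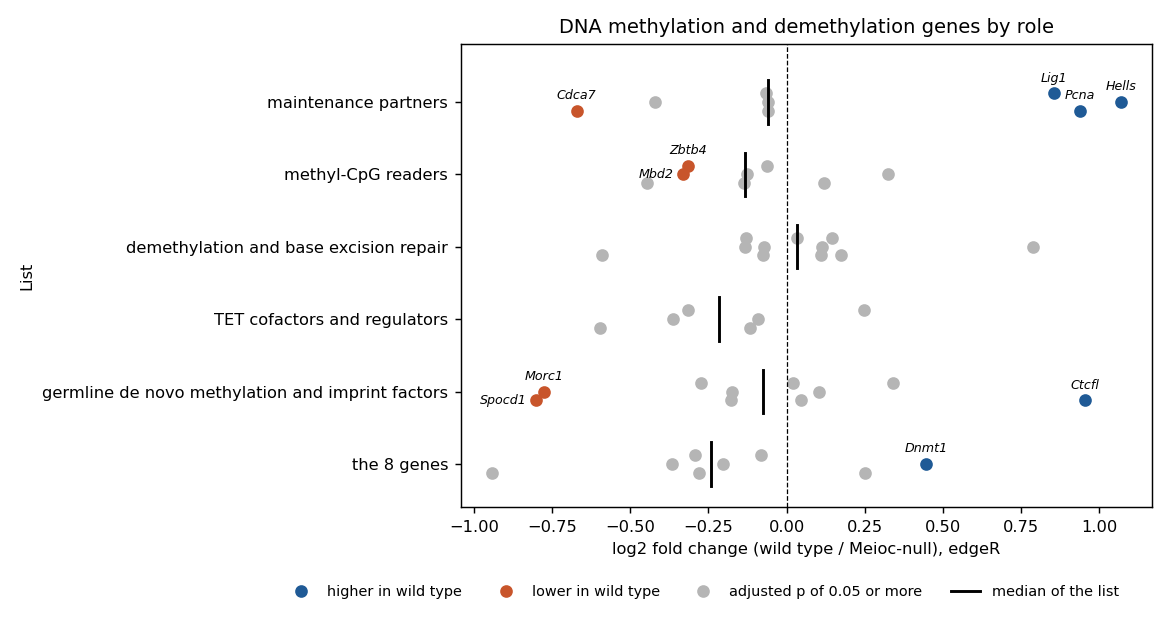
Each point is the log2 fold change (wild type/Meioc-null, edgeR) of a gene, grouped by role for the 8 genes and 5 of the 6 lists, blue where called higher and red where called lower in wild type, and black bars are list medians. The maintenance list holds 3 genes called higher, at 0.85 to 1.07, and 1 called lower, at -0.67, while *Dnmt1* is the single called point among the 8 genes.

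The genes whose CPM followed each of the 8 most closely over the 7 libraries were found by the root mean square (RMS) difference of their log2 CPM, centred on each gene's own mean. For *Dnmt1* they were *Pold3* (RMS 0.0335), which encodes a subunit of DNA polymerase delta, and *Rev1* (0.0416), where *Dnmt1* itself ranged over 0.63 on the log2 scale. For *Uhrf1* they were *Rpl9* (0.0608) and *Mcm6* (0.0619), a gene of the replicative helicase and of the S phase list. For *Dnmt3a* they were *Samd8* (0.0280) and *Dnajc27* (0.0326), for *Dnmt3b* *Clip1* (0.0468) and *Kdm5d* (0.0564), and for *Dnmt3l* *Car6* (0.184) and *Tox* (0.215). For *Tet1* they were *Tut7* (0.0332) and *Ahnak* (0.0338), for *Tet2* *Zc3hav1l* (0.0282) and *Dclre1c* (0.0404), and for *Tet3* *Kmt2b* (0.0276) and *Akna* (0.0692). With 7 libraries and 13630 genes, close profiles are described and not tested.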

How the data were processed

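Bulk RNA-seq was measured in 7 libraries, grouped by the genotype in their labels. The authors trimmed 50-base single-end reads with cutadapt 1.8 and ran kallisto 0.44.0, with sequence-bias correction and strand, on GENCODE Basic vM15 transcripts. They deposited kallisto's estimated counts for each protein-coding transcript, which need not be whole because shared reads are divided by estimation. They also deposited TPM, renormalized by the authors to 1000000 per library over these transcripts, which keeps no depth.

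Gene assignments of the 43139 transcripts were read from the GENCODE vM21 annotation (GRCm38) through their Ensembl identifiers, and 119 had none (0.247% to 0.282% of counts) and stayed out. Both values were summed by gene, and the counts were rounded. Genes were tested where 3 or more libraries reached 1 TPM, which left 13630, with edgeR 4.0.16 (R 4.3.3, TMM, quasi-likelihood test, no covariates) and Benjamini-Hochberg adjustment, with a threshold of 0.05. The authors used DESeq2 with the same filter. Shares were compared by two-sided exact permutation of the genotype labels. On simulated counts for 13630 genes, edgeR recovered 85.3% of genes changed by 1 on the log2 scale; for 21920 transcripts it recovered 5.88%. Floors of 3 counts cover counting error only.

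The members and the gene lists were chosen with earlier results of these data known. Named genes are the 8 members, their transcripts with a mean TPM of at least 1, called genes of each list (up to 4 in each direction), the 2 genes with the smallest RMS difference to each member (0.5 counts added before the log), and *Meioc*. The result of 1 further called gene is not reported here. Promoters came from RefSeq tables of GRCm38.p6. The alternatives were DESeq2 1.42.0, RLE scaling, library size alone, limma 3.58.1 on TPM with 1 or 0.1 added before the log2, a filter at 5 TPM and no filter, a correction of CPM for length in every library, a replicate block, the omission of single libraries and, for shares, estimated counts. No pair of libraries was as close as counting noise.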

Additional observations from a re-analysis of the deposited data

Results flagged for a closer look

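In each group of 4 wild-type libraries, the lowest and the highest value of every gene and transcript described were compared with the other 3, and 7 of 41 groups held a library whose gap to its neighbour, as a share of the range, was above Dixon's 95% critical value for 4 values. Chance gives about 1 in 20 groups, and the groups are not independent, since a gene and its transcripts share reads. WT1 was low for *Dnmt1* in CPM (259.7, with the nearest wild-type library at 338), for *Dnmt1* in TPM (69.0, nearest 80.5) and for the transcript Dnmt1-201 (22.6 TPM, nearest 40.5). WT1 was high for Tet1-206 (3.42 TPM, nearest 1.86) and Tet2-201 (8.69 TPM, nearest 4.79). WT4 was high for Dnmt3a-201 (9.84 TPM, nearest 6.82) and for Dnmt3b-208 (2.14 TPM, with the other 3 at 0). Beside its low *Dnmt1*, WT1 also had the lowest summed TPM of the wild-type libraries for the S phase genes (996) and the meiotic prophase genes (4173); the part of these in its *Dnmt1* level was not tested.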

How the results depend on the processing

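Of the 8 log2 fold changes, those of *Dnmt1*, *Dnmt3a*, *Dnmt3b*, *Dnmt3l* and *Tet2* kept their sign under every alternative run. *Dnmt3l* and *Tet1* gave no value with the filter at 5 TPM, which they did not pass. *Uhrf1* turned to -0.012 with limma on both log2(TPM + 1) and log2(TPM + 0.1), *Tet1* to 0.016 with the length trend removed, and *Tet3* ranged from -0.41 to 0.19 when a library was left out. The TPM scales moved the median of all genes to -0.23 and -0.25.

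Of the 8 genes, 1 was called higher and 0 lower by edgeR. The number called lower was 2 by DESeq2 on the filtered genes, 1 by DESeq2 on all genes, 2 with library size alone, and 3 with limma on either TPM scale. The number called higher was 0 on both TPM scales. With 1 library left out it was 0 to 1 higher and 0 to 2 lower. Of the 54 other genes, 5 were called higher and 5 lower. The number lower became 10 by DESeq2 on the filtered genes, 9 on all genes, 10 with library size alone and 15 on both TPM scales. With 1 library left out, 1 to 7 of the 54 were higher and 0 to 8 lower. Of all tested genes, edgeR called 3.33% lower, DESeq2 on the filtered genes 6.42%, and library size alone 6.6%. The TPM scales called 15.3% and 15.1% lower, and DESeq2 on all genes called 764 of 14420 lower. With 1 library left out, 113 to 1440 of 13630 genes were higher and 18 to 837 lower. Over all genes, edgeR gave 1513 calls, DESeq2 on the filtered genes 2331, limma 2522 on log2(TPM + 1) and 2506 on log2(TPM + 0.1), and the replicate block 109. Leaving out a library gave from 131 calls (without KO3) to 2172 (without WT1). No transcript of the 8 genes was called, but 1 was without WT1, where 407 of all transcripts were called, so 0 to 1 with a library left out. The *Tet1* share differed by 0.54 percentage points between genotypes, and by -1.23 to 1.53 with a library left out, below 0 without WT4 (-0.31) and without KO2 (-1.23). The cause of these changes was not tested.

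The replicate numbers did not pair the libraries: deviations from the group means of same-numbered libraries correlated at 0.019, -0.091 and -0.13. A replicate block in edgeR gave 0 of the 8 genes called, with *Dnmt1* at 0.41 (adjusted p = 0.170), 1 of the 54 others higher and 0 lower. Depth limits *Dnmt3l*, with 17.0 to 49.0 counts. *Uhrf1* and the transcript estimates are limited by shared sequence.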

Other observations

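The marker lists not yet described moved less than those of undifferentiated spermatogonia and meiotic prophase. Of 7 genes of differentiating spermatogonia 2 were called higher in wild type (sum 441 to 769.9 TPM, against 289.6 to 454 in null), and of 7 genes of germ cells at large 3 were (1915 to 2103 TPM, against 1514 to 1569). Of 10 Sertoli cell genes 1 was called lower (1192 to 1410 TPM against 1314 to 1636), of 6 peritubular myoid genes 1 was called lower (528 to 617 TPM against 656 to 711), and of 6 endothelial genes 1 was called higher (34.4 to 38.7 TPM against 37.3 to 44.8). Of 7 Leydig cell genes 0 were called by edgeR, with 1 at an unadjusted p under 0.05 (419.6 to 599.6 TPM against 533 to 727), and of 7 macrophage genes 0 were called, with 2 at an unadjusted p under 0.05 (154 to 173 TPM against 175 to 222). No marker was at 0 in all 7 libraries. For the genes described here, these lists show that transcripts of somatic cells were present in every library, and the share of the Dnmt and Tet transcripts that came from each cell type was not measured.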
